A study of Mus musculus with 16 samples.

Results

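The 10 genes described here encode ligands, receptors and nuclear targets of the Notch pathway in mouse neural cells: the ligands Dll1, Dll3 and Jag1, the receptors Notch1, Notch2 and Notch3, and the Hes and Hey repressors Hes1, Hes5, Hey1 and Hey2. They were chosen by name, and all 10 were found among the 50600 genes of the count files. Each sample is a clonal line of neural progenitor cells (NPCs), or of astrocytes derived from such a line, from F1 hybrid embryonic stem cells whose maternal genome is 129/Sv and whose paternal genome is Castaneus (Cast). Reads that cover a base differing between the strains were assigned to the 129 or the Cast allele, and the allelic expression ratio is the percentage of such reads that came from Cast.

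The 16 libraries fell into 3 sets. Astrocytes, obtained by exposing NPCs to BMP4 with little FGF2, were sequenced as poly(A)-enriched RNA from 5 clones, 129, C2 and G4 (female) and mC3 and mE6 (male). NPCs were sequenced as poly(A)-enriched RNA from 3 clones, F5 (female), mG2 and mG6 (male), and after ribosomal RNA depletion from 4 male clones with a pair of libraries each (Ch3, Ch5, Ch7, Ch8). The paper derived its clones from a female and a male embryonic stem cell line, so sex and line cannot be told apart. Every poly(A) clone has 1 library, the astrocyte clones are not the NPC clones sequenced here, and for the Ch clones RNA preparation and clone cannot be told apart from each other, so their levels are set beside the others. They enter a test with the poly(A) libraries only in an alternative that takes all 7 NPC clones together, whose calls carry the preparation with them. The 2 libraries of a Ch clone carry no label that tells separate cultures from repeat preparations, so p-values among Ch clones measure only the spread between these libraries.

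Notch receptors are single-pass membrane proteins that are cut when a Delta or Jagged ligand on a neighbouring cell binds them, which frees an intracellular part that joins the DNA-binding protein RBPJ on target genes. Hes and Hey genes are the classical targets, and their products repress proneural genes, so Notch signalling keeps neural progenitors undifferentiated and also favours the astrocyte fate. Fringe enzymes add sugars to the receptors, Nrarp is a target that feeds back on the pathway, and endocytosis of the ligand in the sending cell is needed for the cut.

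Promoter sequence from RefSeq (GRCm38.p6) was at hand for 8 of the 10 genes, all but Hes1 and Hey1. It is printed for the 2 ligands that fell in astrocytes and for Hes5, the target closely tied to Notch that differed among the Ch clones, as the 250 bases before the start, 5′ to 3′, for Dll1 (chr17:15376933-15377182, minus strand, the upstream of 2 starts), Dll3 (chr7:28301786-28302035, minus strand) and Hes5 (chr4:154960673-154960922, plus strand, inside the gene's listed span, which begins further upstream). Capitals mark matches on either strand to TGGGAA, the core of an RBPJ site, or CAGCTG, an E box of the kind bound by proneural factors.
Dll1: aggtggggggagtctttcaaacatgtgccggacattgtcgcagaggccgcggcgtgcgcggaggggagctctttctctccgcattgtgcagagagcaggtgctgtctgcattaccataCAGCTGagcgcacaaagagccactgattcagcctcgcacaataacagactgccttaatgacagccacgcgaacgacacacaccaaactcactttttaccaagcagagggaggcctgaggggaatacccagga
Dll3: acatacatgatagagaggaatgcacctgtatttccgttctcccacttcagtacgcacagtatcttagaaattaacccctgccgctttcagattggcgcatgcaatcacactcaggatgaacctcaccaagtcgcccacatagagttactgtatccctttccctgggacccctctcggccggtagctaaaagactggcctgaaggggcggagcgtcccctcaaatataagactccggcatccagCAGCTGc
Hes5: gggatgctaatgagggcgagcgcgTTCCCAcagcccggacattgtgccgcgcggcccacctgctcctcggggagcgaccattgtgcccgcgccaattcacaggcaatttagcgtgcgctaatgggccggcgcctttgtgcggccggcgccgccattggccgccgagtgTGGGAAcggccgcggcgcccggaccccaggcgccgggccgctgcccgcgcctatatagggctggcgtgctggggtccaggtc

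Hes5 held 2 matches to TGGGAA in opposite orientation, 1 between 226 and 221 bases and 1 between 82 and 77 bases before the start, and 2.77% of the 32851 promoter windows of this length hold at least 2. Hey2 held 1 match, as at least 1 is held by 21.6% of windows. Each of the 3 ligand genes held 1 CAGCTG before a start, although the window of the downstream Dll1 start held 0, 132 to 127 bases before it in Dll1, 7 to 2 in Dll3 and 82 to 77 in Jag1, against 13% of all windows. The N box CACNAG, a site of Hes proteins that overlaps neither motif, was found at 1 place in Notch1, at 1 in Notch2 and at 2 in Notch3, and 36.7% of windows hold it. These matches are descriptions of letters and not of bound sites.

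The sequencing depth was 69925081 to 105892734 reads on genes in the poly(A) libraries and 20871111 to 30920672 in the Ch libraries. Expression is given as CPM (read counts scaled to a common library size) after TMM scaling. Of 8 astrocyte marker genes, 3 were higher and 1, Aldh1l1, was lower in astrocytes than in poly(A) NPCs, and Gfap, the astrocyte intermediate filament, was at 65.4 to 1976 CPM in astrocytes and at most at 2.12 in these NPCs. The 5 proliferation genes were all lower and the 7 BMP target genes all higher in astrocytes. The summed CPM of 6 mural and fibroblast markers was 12.6 to 223 in astrocytes, highest in clone C2 through Col1a1, and 1.95 to 23.7 in poly(A) NPCs. Of 5 endothelial markers the sum was 19.0 to 105 against 4.06 to 6.84, mainly Kdr in astrocytes, while Tek was lower in astrocytes (log2 fold change -3.74, edgeR adjusted p = 0.0243) and the defining endothelial genes Cdh5 and Cldn5 were under 1 CPM in every library. Neuronal markers summed to 465 to 1361 against 974 to 1790, mainly through Map2, at 447 to 1330 CPM in astrocytes and 960 to 1767 in poly(A) NPCs. Map2 was not called, and the only neuronal marker called, Snap25, was higher in astrocytes (log2 fold change 4.09, edgeR adjusted p = 0.0346). The part of other cell types in the results below was not tested, and in bulk RNA fewer cells that express a gene and less RNA per cell cannot be told apart.

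In astrocytes 2 Notch ligands, Dll1 and Dll3, fell and the target Hey1 rose, while the 3 receptors, Jag1, Hes1, Hes5 and Hey2 did not pass the test. Thus 3 of the 10 genes were called, beside 25.5% of the 18192 genes tested, so the share is close to that of all genes. Hey1 is the 1 gene that was higher, beside 13% of all genes, and the 2 lower genes stand beside 12.6%. On simulated data the test missed most changes of 2 on the log2 scale, so a gene not called may still differ. The libraries of astrocytes and poly(A) NPCs did not overlap for the same 3 genes, against 32.7% of all genes. The plot of CPM by library shows these separations and the wide spread of the other genes among clones.

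**Figure D1:**
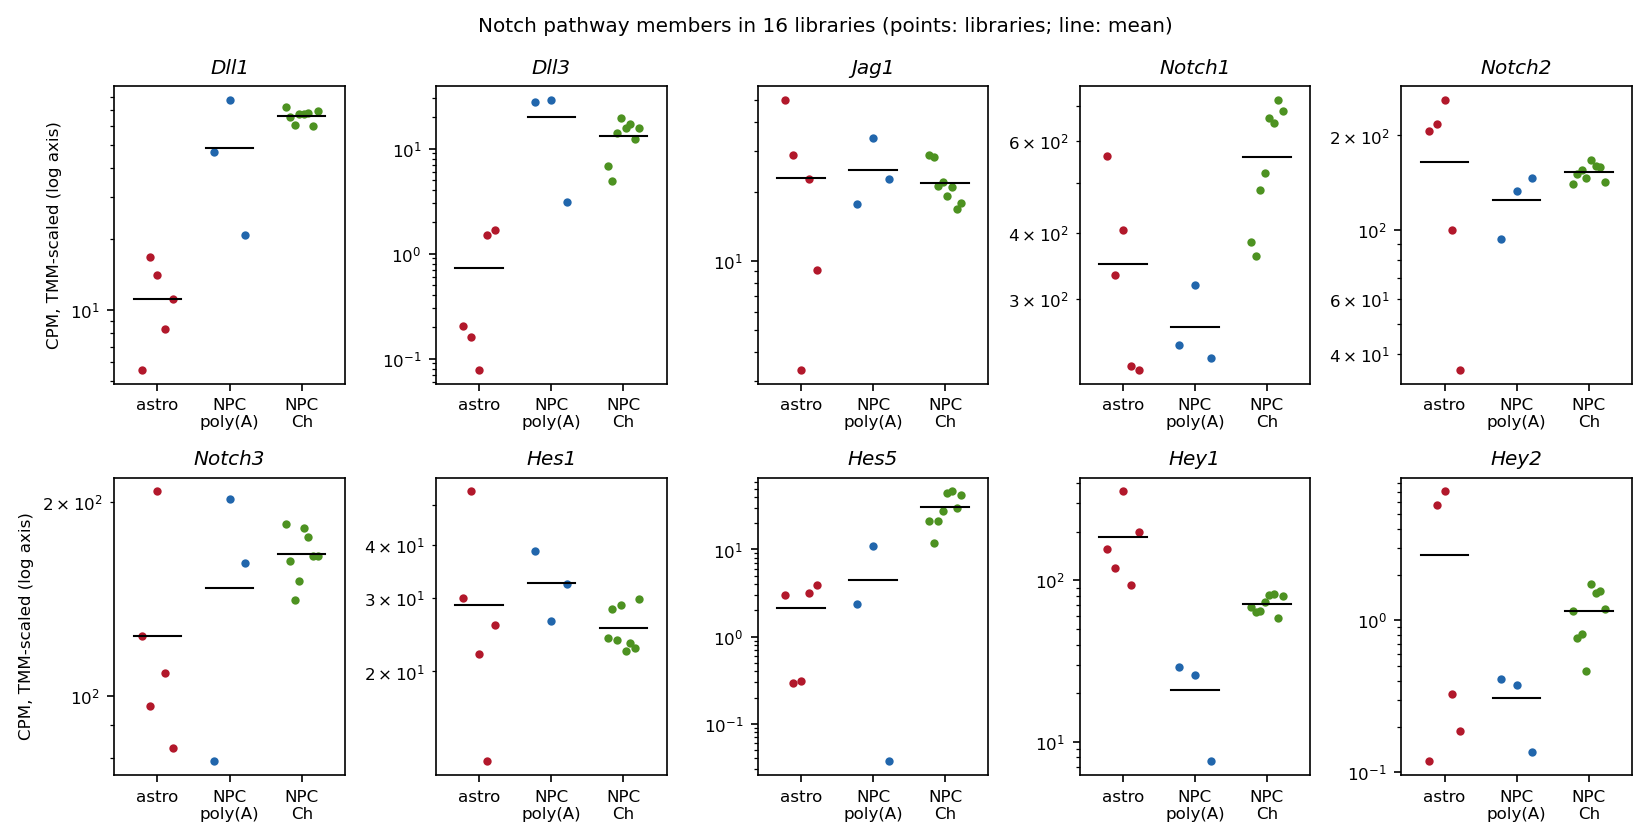
TMM-scaled CPM (log axis, a scale of its own in each panel) of the 10 genes in 5 astrocyte, 3 poly(A) NPC and 8 Ch NPC libraries, with points for libraries and lines for group means. Dll1 and Dll3 lie lower and Hey1 higher in all 5 astrocyte libraries than in all 3 poly(A) NPC libraries, and Jag1, Notch2, Hes5 and Hey2 spread widely among astrocyte clones.

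Dll1 is the Delta ligand that progenitors and new neurons present to their neighbours. Its level was 5.57, 16.8, 14.1, 8.27 and 11.1 CPM in the astrocyte clones 129, C2, G4, mC3 and mE6, and 46.5, 77.9 and 20.8 CPM in the NPC clones F5, mG2 and mG6. All 5 astrocyte values lay below the lowest NPC value, and the log2 fold change was -2.12 (SE 0.46, edgeR quasi-likelihood test, Benjamini-Hochberg adjusted p = 0.0128). Without mG2, the NPC clone with the highest value, the log2 fold change was -1.60 and the adjusted p from edgeR 0.0624. In the Ch clones Dll1 was at 64.0 to 68.9 CPM.

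Dll3 encodes a divergent Delta protein that does not activate receptors on other cells and is known to act inside the cell that makes it. It was nearly absent from astrocytes, at 0.204, 0.159, 0.0777, 1.495 and 1.683 CPM in clones 129, C2, G4, mC3 and mE6, and reached 27.7, 29.3 and 3.13 CPM in F5, mG2 and mG6. The NPC clone mG6 was far below the other two yet above every astrocyte clone. Mean CPM was 27.7-fold higher in the NPCs, with a log2 fold change of -4.79 for astrocytes (SE 1.15, edgeR adjusted p = 0.0184), and the edgeR adjusted p was 0.0558 without F5 and 0.0612 without mG2. In astrocytes these values rest on 6 to 152 reads.

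Jag1, the Jagged ligand, varied strongly among astrocyte clones and did not separate the cell types. It was at 50.4 CPM in clone 129, 29.0 in C2, 3.34 in G4, 22.7 in mC3 and 9.12 in mE6, a 15.1-fold range, and at 17.6, 34.3 and 22.6 CPM in F5, mG2 and mG6. The astrocyte values lay on both sides of the NPC values (log2 fold change -0.12, SE 0.72, edgeR adjusted p = 0.925). With 0.5 CPM added to both values, the ratio of its highest to its lowest astrocyte clone stood at percentile 96.2 of the genes tested.

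Hey1 is a Hes-related repressor that Notch, and in some cells BMP signalling, induces. It was the gene among these 10 that rose, at 156, 120, 358, 94.2 and 199.2 CPM in astrocyte clones 129, C2, G4, mC3 and mE6 and at 29.3, 26.0 and 7.56 CPM in F5, mG2 and mG6. The lowest astrocyte clone, mC3, was above the highest NPC clone, mean CPM was 8.86-fold higher, and the log2 fold change was 3.15 (SE 0.61, edgeR adjusted p = 0.00833). The call held in each of 13 alternative analyses, with adjusted p from edgeR or DESeq2 of 5.58e-07 to 0.0347, and the smallest log2 fold change, 1.70, came from adding the Ch clones, in which Hey1 was at 66.0 to 82.0 CPM. The 7 BMP target genes were also higher in astrocytes, but did not rank the clones as Hey1 did. Their summed CPM was lowest in G4 (1613), the clone with the most Hey1, and highest in mE6 (3125). Id1 and Id2 were lowest in G4 (161.6 and 479.4 CPM), while Id4 and Smad7 were highest there (155.3 and 249.4 CPM). Whether the changes are linked was not tested.

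Hey2, the closest relative of Hey1, was detectable at more than 1 CPM in astrocyte clones C2 (5.71 CPM) and G4 (7.09 CPM) alone among the poly(A) libraries. It was at 0.118 CPM in clone 129, 0.329 in mC3 and 0.188 in mE6, within or just below the range of 0.135 to 0.409 CPM in the NPCs. The log2 fold change of 3.12 (SE 1.53) did not pass the test (edgeR adjusted p = 0.166). C2 and G4 were also the astrocyte clones with the most Kdr, a receptor known from endothelium, at 104 and 72.1 CPM against 17.9 to 23.0 CPM in the other astrocyte clones. Other vascular and mural markers ranked the clones differently. Col1a1 was at 211 CPM in C2, 34.0 in G4 and 30.05 in mC3, Pecam1 was highest in mC3 at 1.72 CPM, and Cspg4 was at 0.0926 CPM or less in C2 and G4 and at 19.9 in mC3. The link between these values was not tested.

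Hes1, a target that answers to Notch and to other signals, was at 30.0, 53.9, 22.0, 12.2 and 25.8 CPM in the astrocyte clones in the same order and at 38.8, 26.4 and 32.3 CPM in the NPC clones, so that the groups overlapped (log2 fold change -0.18, SE 0.41, edgeR adjusted p = 0.793). Hes5, in the brain the target most closely tied to Notch activity, ranged over 2 clusters of values in astrocytes, with 0.291 CPM in C2 and 0.311 in G4, and 3.00, 3.14 and 3.91 CPM in 129, mC3 and mE6. Among poly(A) NPCs it ran from 3 reads in mG6 (0.0369 CPM) through 2.40 CPM in F5 to 11.03 in mG2. The groups overlapped and the log2 fold change of -1.07 had a SE of 1.32 (edgeR adjusted p = 0.592). In the Ch libraries Hes5 was at 11.96 to 46.9 CPM, above every poly(A) library, a difference in which preparation and clone cannot be told apart.

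None of the receptors was called between cell types. Notch1 was at 562 CPM in clone 129, 334 in C2, 406 in G4, 224 in mC3 and 219 in mE6, and at 245, 318 and 231 CPM in F5, mG2 and mG6 (log2 fold change 0.40, SE 0.33, edgeR adjusted p = 0.415). Notch2 was at 206, 218, 261, 99.6 and 35.5 CPM in the same astrocyte clones and at 93.0, 133 and 146 CPM in the NPC clones (log2 fold change 0.40, SE 0.55, edgeR adjusted p = 0.635). Notch3, known in the brain from progenitors and mural cells, ranged from 83.0 to 208 CPM in astrocytes and from 79.1 to 202 in these NPCs (log2 fold change -0.25, SE 0.37, edgeR adjusted p = 0.666). The astrocyte and NPC libraries overlapped for each receptor.

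Among astrocytes, the ranges of female and male clones did not overlap for 4 of the 10 genes, beside 35.4% of all genes tested. Sex here stands for sex and stem cell line together, which cannot be told apart. Notch1 and Notch2 were higher in the 3 female clones, and Dll3 and Hes5 in the 2 male clones. For Hes5 the ranges nearly met, at 0.291 to 3.00 CPM in female and 3.14 to 3.91 CPM in male clones. Dll3 was at 0.0777 to 0.204 CPM in female and 1.495 to 1.683 CPM in male astrocytes, and Notch2 at 206 to 261 and 35.5 to 99.6 CPM. With sex as a covariate Dll1, Dll3 and Hey1 were still called, and the log2 fold change of Notch2 became -0.19 (edgeR adjusted p = 0.846). Among the 3 poly(A) NPC clones, mG6 was the lowest for Notch1, Dll1, Dll3, Hes5, Hey1 and Hey2. F5 was the lowest for Notch2, Notch3 and Jag1, and mG2 for Hes1. For Notch1, mG6 and F5 were close, at 231 and 245 CPM. How often each clone was the lowest over all genes was not counted.

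Per length of exon, Hey1 ranked first in astrocytes with 84.2 CPM per kb, above Notch1 with 24.5, Notch2 with 15.6, Notch3 with 15.4 and Hes1 with 14.1 CPM per kb. Jag1 followed with 3.93, Dll1 with 2.65, Hes5 with 1.56, Hey2 with 1.05 and Dll3 with 0.252 CPM per kb. Hey1 was the only gene of the astrocyte order whose clone range did not overlap that of its neighbour. In poly(A) NPCs Notch1 (18.6), Notch3 (18.3) and Hes1 (15.95 CPM per kb) led, followed by Notch2 (11.8), Dll1 (11.5), Hey1 (9.50), Dll3 (6.97), Jag1 (4.26), Hes5 (3.29) and Hey2 (0.12), and every pair of neighbours overlapped. In Ch clones the order was Notch1 (39.2), Hey1 (32.5), Hes5 (22.5), Notch3 (20.6), Dll1 (15.7), Notch2 (14.5), Hes1 (12.5), Dll3 (4.61), Jag1 (3.76) and Hey2 (0.452 CPM per kb).

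Around these 10 genes, 50 further genes of the pathway were examined in 8 lists, of which 46 could be tested between astrocytes and poly(A) NPCs. Of them 8 were higher, beside 13% of all genes, 6 were lower, beside 12.6%, and 32 were not called, with a median log2 fold change of 0.10 against 0.08 over all genes. The fall was deepest for Nrarp, a Notch target and feedback inhibitor, from 12.2 to 36.2 CPM in poly(A) NPCs to 0.0389 to 1.20 CPM in astrocytes (log2 fold change -5.79, SE 0.87, edgeR adjusted p = 0.00305). The Fringe gene Mfng fell by 4.95 on the log2 scale (edgeR adjusted p = 0.00221), from 1.01 to 7.83 CPM to at most 0.161 CPM, whereas the means of Lfng were 59.1 CPM in astrocytes and 176 in NPCs without passing the test (edgeR adjusted p = 0.115). Neurl1a, a ubiquitin ligase of ligand endocytosis, fell by 2.92 (edgeR adjusted p = 0.00202). Mib1, of the same list, averaged 330 CPM in astrocytes and 337 CPM in NPCs.

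Also lower in astrocytes were the Deltex gene Dtx4 and the acetyltransferase Kat2a, with log2 fold changes of -1.49 and -1.13 (edgeR adjusted p = 0.0102 and 0.00838). The largest rise was that of Dlk2, a Delta-like membrane protein, from a mean of 0.266 CPM in NPCs to 8.57 in astrocytes (log2 fold change 4.997, edgeR adjusted p = 0.00517). Hes7, known from somite segmentation, rose to 0.798 to 1.40 CPM from at most 0.148 (log2 fold change 3.68, edgeR adjusted p = 0.00195). Bhlhe41 rose by 2.24 on the log2 scale (edgeR adjusted p = 0.0218), and smaller rises were called for Notch4 (1.42, edgeR adjusted p = 0.0405), the gamma-secretase gene Psen2 (1.29, edgeR adjusted p = 0.00813) and the Numb-like gene Numbl (0.95, edgeR adjusted p = 0.0109). Notch4 lost its call in 10 of 13 alternatives, in which its log2 fold change stayed between 0.77 and 1.69. The plot of log2 fold changes sets these genes beside the 10.

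**Figure D2:**
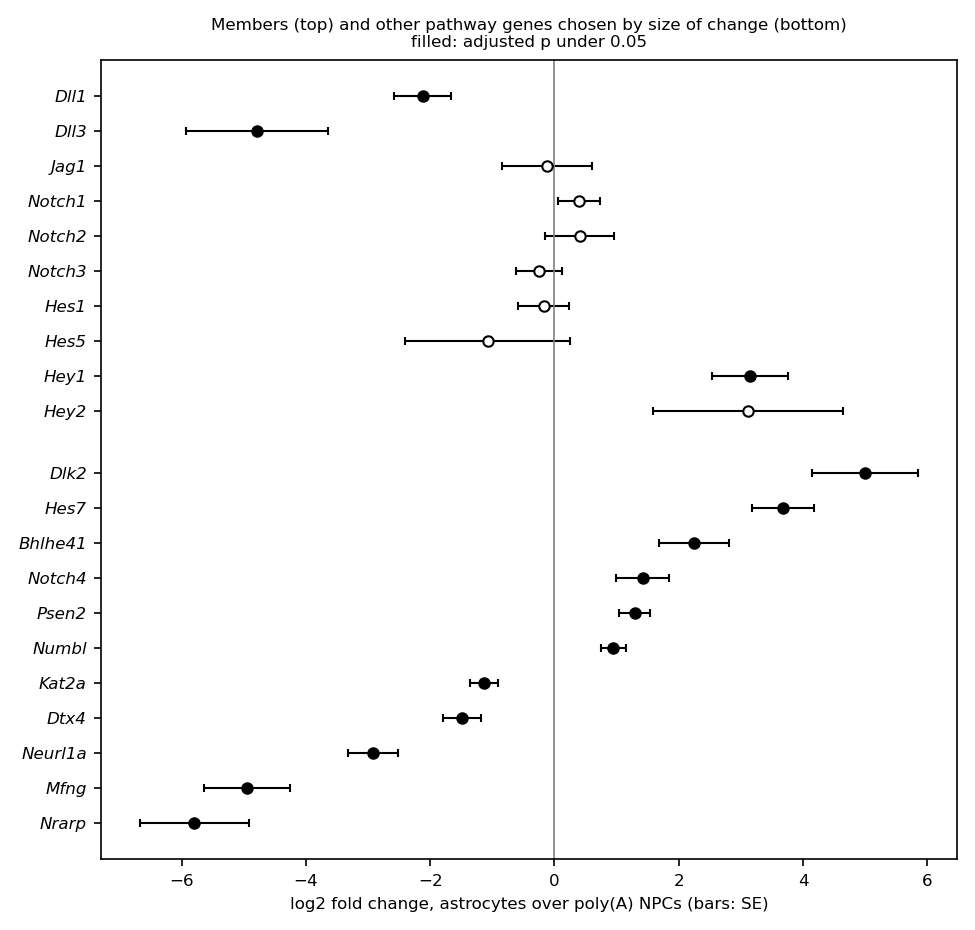
Log2 fold changes of astrocytes over poly(A) NPCs from edgeR with their SE, for the 10 genes (top) and further pathway genes chosen for the size of their change (bottom); filled points passed an adjusted p of 0.05. Dll1, Dll3 and Hey1 are filled in the upper part, and Nrarp at -5.79 lies furthest to the left.

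By list, 1 of 5 ligand and ligand-like genes was higher, Dlk2, while Dll4, Jag2, Dlk1 and Dner were not called. Also higher were 1 of 1 receptors, 2 of 8 genes of receptor cleavage and 2 of 8 inhibitors and endosomal regulators. Of the 4 tested Hes and Hey relatives 2 were higher. Lower were 1 of 4 genes of ligand endocytosis, 1 of 5 of glycosylation, 2 of 8 inhibitors and 2 of 11 of the nuclear complex. Of 6 proneural genes, which Hes proteins repress, 2 could be tested and 1 was called. Neurod1 was lower in astrocytes, with means of 0.416 and 5.81 CPM (log2 fold change -3.80, edgeR adjusted p = 0.00295).

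The Ch clones, with 2 libraries each, allow clones to be compared with the spread between libraries. Total reads of Notch1, Dll3, Jag1 and Hes5 differed among the 4 clones, 4 of 10 genes beside 16.6% of the 17095 genes tested. Pathway genes of the lists differed in 9 of 45 cases. The plot of the Ch clones shows both libraries of each.

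**Figure D3:**
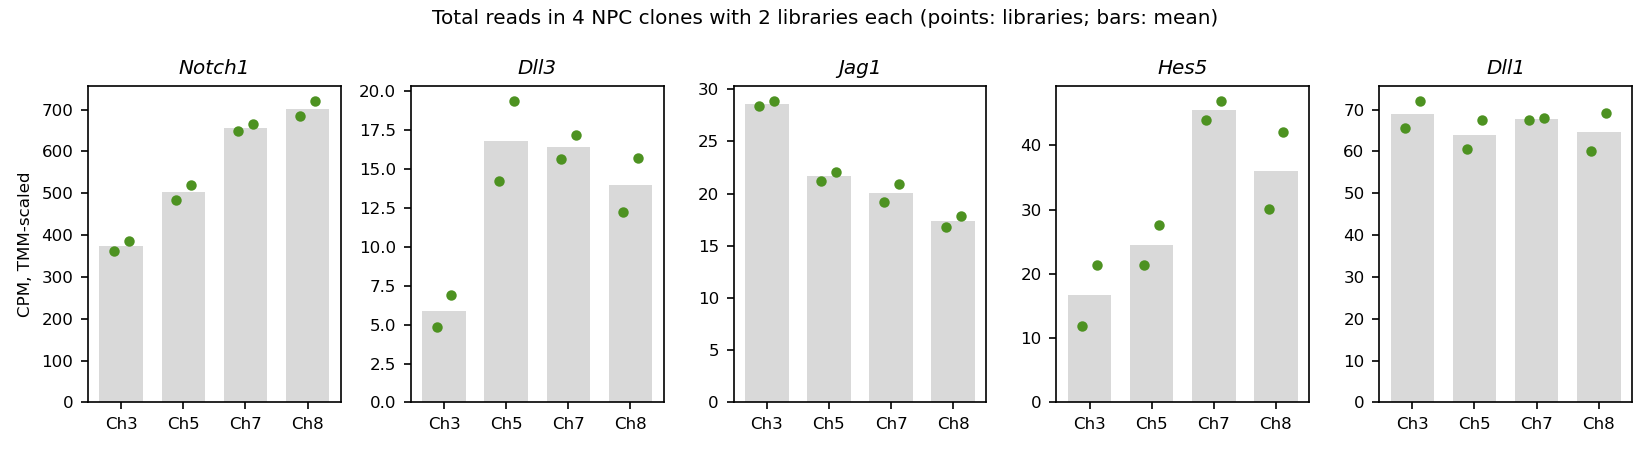
TMM-scaled CPM of 5 genes in the 4 Ch NPC clones, with points for the 2 libraries of a clone and bars for their mean. Notch1 and Jag1 change in opposite order from Ch3 to Ch8 with both libraries of each clone close together, Dll3 is lowest in Ch3, Hes5 is highest in Ch7, and Dll1 stays between 60.02 and 72.1 CPM in all 8 libraries.

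Notch1 was at 362 and 386 CPM in the libraries of Ch3, at 483 and 521 in Ch5, at 649 and 665 in Ch7 and at 684 and 720 in Ch8. No 2 clones overlapped, and the fitted means spanned 0.91 on the log2 scale (edgeR adjusted p = 2.27e-04). Jag1 ran the other way, from 28.3 and 28.8 CPM in Ch3 through 21.2 and 22.1 in Ch5 and 19.2 and 20.9 in Ch7 to 16.8 and 17.8 CPM in Ch8 (range 0.72 on the log2 scale, edgeR adjusted p = 0.00232). Its clones likewise did not overlap.

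Dll3 was at 4.86 and 6.90 CPM in Ch3 and at 12.2 to 19.4 CPM in the 6 libraries of the other clones, which overlapped among themselves (range 1.53, edgeR adjusted p = 0.00196). Hes5 was at 11.96 and 21.3 CPM in Ch3, 21.4 and 27.6 in Ch5, 30.1 and 42.0 in Ch8 and 44.0 and 46.9 in Ch7 (range 1.47, edgeR adjusted p = 0.00685). Without Ch3, Notch1 and Hes5 were still called, while Dll3 and Jag1 were not (edgeR adjusted p = 0.573 and 0.182). The remaining genes, Notch2, Notch3, Dll1, Hes1, Hey1 and Hey2, were not called, with adjusted p-values from edgeR of 0.0926 for Hey2 to 0.778 for Dll1. Dll1 was the most even of the 10, with clone means of 64.0 to 68.9 CPM.

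Across the 12 clones, after subtraction of the mean of each of the 3 sets, the genes with profiles most like Notch1 were G630016G05Rik, Slc7a3 and Klf13 (Pearson r of log2 CPM 0.957, 0.943 and 0.930), and those most like Hey1 were Tubb2b, Rps27a-ps3 and ENSMUSG00000097906 (0.951, 0.932 and 0.927). The profiles nearest to Hes1 were those of Slc6a8, ENSMUSG00000106062 and Fam8a1 (0.948, 0.920 and 0.914), and to Hes5 those of Rab23, Ino80b and Nr2f6 (0.899, 0.897 and 0.893). These are the highest of 15626 genes compared over 12 points, and the clones of a set share their preparation. Among the 10 genes themselves the highest r was 0.820, between Dll3 and Hes5, and the lowest -0.542, between Jag1 and Hey1. Notch1 had r of 0.171 with Hes5 and 0.247 with Hes1.

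The 10 genes were mostly read from both alleles. Of 120 gene and clone pairs, 97 had at least 20 allele-specific reads, the minimum used here, and of these 75 were biallelic (35 to 65% Cast), 19 biased and 3 monoallelic (under 15 or over 85% Cast). Over all autosomal genes 82% of such values were biallelic and 5.601% monoallelic. Hes1 could not be read by allele in any clone, since its libraries held 0 to 15 allele-specific reads. The 3 monoallelic values were all of Dll3. The plot of allelic ratios by clone gives the best covered genes with their intervals, which cover counting error only.

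**Figure D4:**
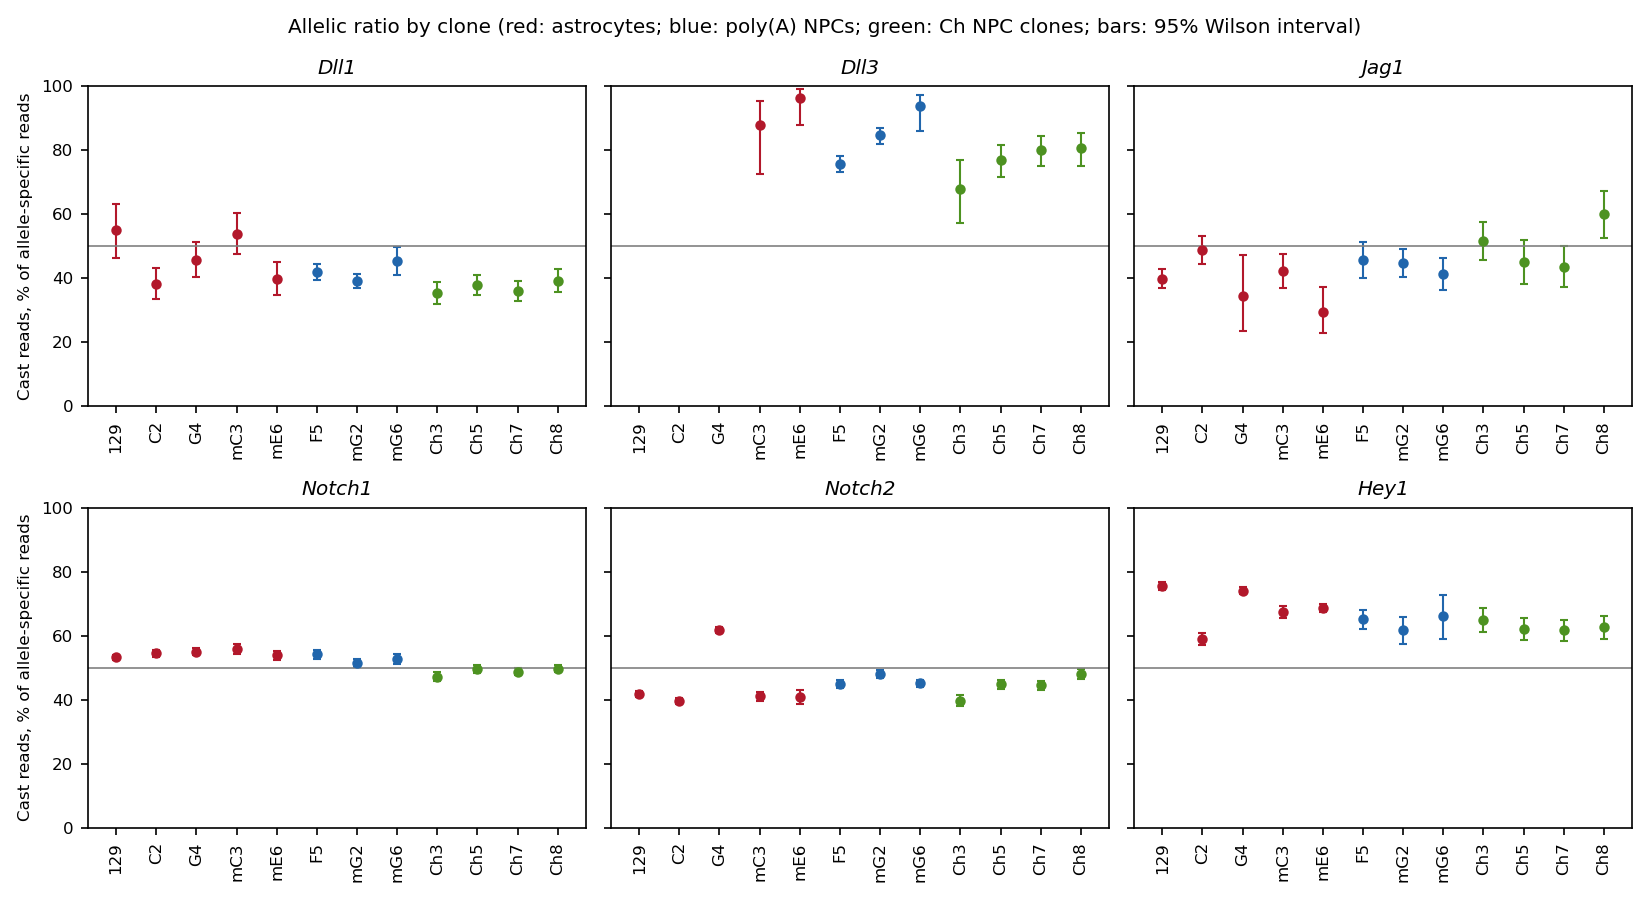
Cast reads in percent of allele-specific reads for 6 genes in 12 clones (red astrocytes, blue poly(A) NPCs, green Ch NPCs with their 2 libraries summed), with 95% Wilson intervals; clones with under 20 reads are left out. Notch1 stays near 50%, Dll3 and Hey1 lie above 50% in every clone shown, and Notch2 lies below 50% in every clone but G4.

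Dll3 was read mainly from Cast in all 9 clones that passed the minimum. It was at 87.9% Cast in astrocyte clone mC3 (95% Wilson interval 72.7 to 95.2%) and 96.4% in mE6 (87.7 to 99.0%), at 75.7%, 84.6% and 93.7% in the NPC clones F5, mG2 and mG6, and at 67.9%, 77.0%, 80.1% and 80.6% in Ch3, Ch5, Ch7 and Ch8. The NPC intervals of F5 (73.1 to 78.2%), mG2 (81.9 to 86.9%) and mG6 (86.0 to 97.3%) spread in a range of 17.9 percentage points. In clones 129, C2 and G4, Dll3 had 4, 6 and 2 allele-specific reads, too few for a ratio, so it entered no test over the poly(A) clones. Among Ch clones its ratio did not pass the test (edgeR adjusted p = 0.638).

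Hey1 was likewise read more from Cast everywhere, and its ratio varied among astrocyte clones. It was at 75.6% in clone 129, 58.9% in C2, 74.0% in G4, 67.3% in mC3 and 68.7% in mE6, with 2238 to 7212 allele-specific reads each, at 61.7 to 66.1% in the poly(A) NPCs and at 61.6 to 64.9% in the Ch clones. The interval of C2 (56.9 to 60.9%) lay below those of all other astrocyte clones. Over the 8 poly(A) clones the mean log2 ratio of Cast to 129 reads was 1.01 (SE 0.13, edgeR adjusted p = 7.89e-04), and the astrocytes did not differ from the NPCs in the test (difference 0.32, SE 0.25, edgeR adjusted p = 0.671).

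Of the 6 genes that could be tested over the 8 poly(A) clones, 3 had unequal reads from the alleles, beside 41.3% of the 10959 genes tested, 16.4% toward Cast and 24.9% toward 129. They were Hey1, Notch1, also toward Cast with a mean log2 ratio of 0.21 (SE 0.03, edgeR adjusted p = 9.32e-04), and Jag1, toward 129 with -0.50 (SE 0.13, edgeR adjusted p = 0.0187). Notch1 was at 53.2 to 55.8% Cast in the astrocytes and 51.5 to 54.1% in the poly(A) NPCs, a narrow span, and at 47.2 to 49.6% in the Ch clones. Jag1 was at 39.9%, 48.7%, 34.5%, 42.1% and 29.5% in astrocyte clones 129, C2, G4, mC3 and mE6, all below 50%, at 41.2 to 45.5% in poly(A) NPCs and at 43.6 to 60.1% in the Ch clones. The call of Jag1 was lost without mG2 (edgeR adjusted p = 0.0518) or mG6 (0.0698). Notch2, Notch3 and Dll1 were not called, with mean log2 ratios of -0.27, 0.03 and -0.34 (edgeR adjusted p = 0.214, 0.639 and 0.0820).

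Between astrocytes and poly(A) NPCs, 0 of these 6 genes differed in allelic ratio, beside 0.703% of all genes, 0.31% with more and 0.392% with fewer Cast reads in astrocytes. None of them had an unadjusted p under 0.05 in edgeR, the smallest being 0.119 for Notch1. Dll1, whose total reads fell, was at 54.9%, 38.2%, 45.8%, 53.9% and 39.8% Cast in the astrocyte clones 129, C2, G4, mC3 and mE6 and at 41.9%, 39.1% and 45.3% in F5, mG2 and mG6, and the groups overlapped (difference in log2 ratio 0.25, SE 0.26, edgeR adjusted p = 0.747). The 2 astrocyte clones above 50% had 133 and 230 allele-specific reads.

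Notch2 was the gene of the 10 whose ratio set a single clone apart. It was at 41.8%, 39.6%, 41.0% and 40.9% Cast in astrocyte clones 129, C2, mC3 and mE6 and at 61.7% in G4 (95% Wilson interval 60.8 to 62.6%, 12333 reads), and at 45.0%, 47.9% and 45.0% in F5, mG2 and mG6. G4 was the only clone of the 12 above 50%, and without it the mean log2 ratio over the poly(A) clones was -0.38 (edgeR adjusted p = 3.32e-04) in place of -0.27. The surrounding genes moved in the same clone. In the window of 20 Mb of chromosome 3 that holds Notch2, the median ratio of 180 genes was 66.1% in G4 and 49.1 to 50.1% in the other astrocyte clones, and over the whole chromosome it was 66.0% in G4.

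Hey1 lies on the same chromosome, in a window with a median of 63.8% Cast over 28 genes in G4 and 46.9 to 48.3% in the other astrocyte clones. Its ratio in clone 129, 75.6%, was as high as the 74.0% of G4 although the window of clone 129 was balanced at 48.3%. Total reads of the genes in the window of Notch2 stood 0.46 higher on the log2 scale in G4 than in the other astrocyte clones. Those of Hey1's window stood 0.23 higher, while Notch2 and Hey1 themselves stood 0.90 and 1.33 higher. Without G4, Hey1 was still called between astrocytes and NPCs. Hes5 lies in a window of chromosome 4 in which G4 had a median of 7.27% Cast over 131 genes and total reads 0.93 lower on the log2 scale, and Hes5 had 5 allele-specific reads there. These were the 3 unbalanced windows of 120 gene and clone pairs, and the other 117 lay between 44.1 and 53.0%.

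**Figure D5:**
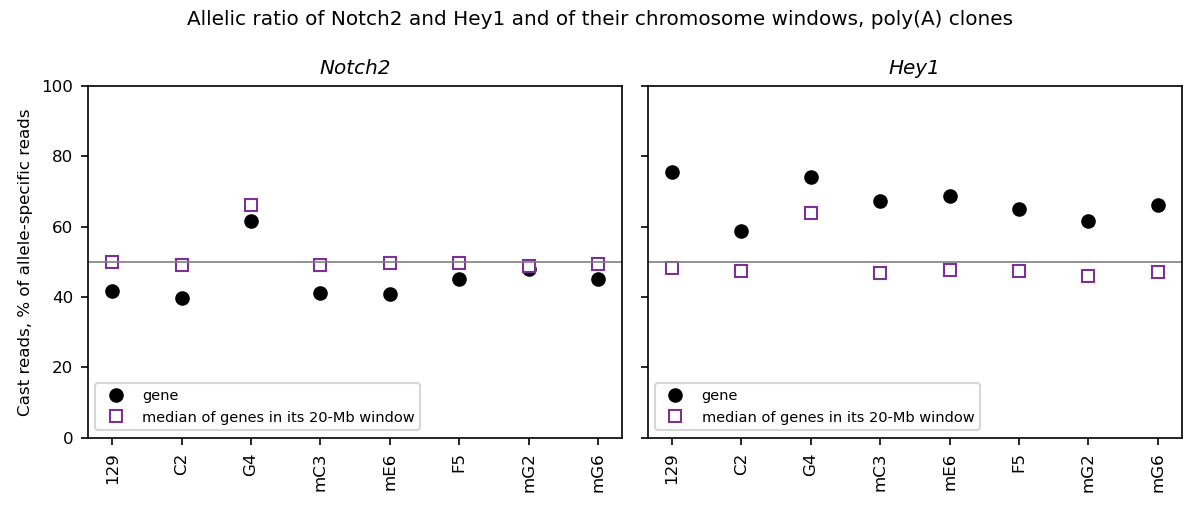
Cast reads in percent of allele-specific reads for Notch2 and Hey1 (filled circles) and the median of the genes in the 20-Mb window that holds each (open squares) in the 8 poly(A) clones. The windows of G4, at 66.1 and 63.8%, stand above those of all other clones, Notch2 exceeds 50% in G4 alone, and Hey1 lies above its window in every clone.

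Among the Ch clones 1 of 7 genes tested differed in allelic ratio, Notch2, beside 8.85% of the 10083 genes tested. The libraries of Ch3 were at 42.6 and 37.8% Cast, those of Ch5 at 45.4 and 44.0%, those of Ch7 at 43.6 and 45.4% and those of Ch8 at 47.7 and 48.3%, so that Ch3 was lowest and Ch8 highest without overlap with the rest (range 0.47 on the log2 scale, edgeR adjusted p = 2.92e-05). Without the second library of Ch3 the adjusted p from edgeR was 0.130, and without Ch3 0.293. Its windows were balanced in all 4 clones. The other 6 genes, Notch1, Notch3, Dll1, Dll3, Jag1 and Hey1, were not called, and Jag1 had the widest range apart from Dll3, 43.6 to 60.1% Cast, on 173 to 270 reads (range 0.95 on the log2 scale, edgeR adjusted p = 0.337).

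Hes5 and Hey2 had enough reads for a ratio in some clones only. Hes5 was at 76.3%, 51.7% and 37.9% Cast in astrocyte clones 129, mC3 and mE6 on 29 to 38 reads, at 76.0% in F5 and 62.7% in mG2, and at 55.3 to 74.2% in the Ch clones. The interval of clone 129 (60.8 to 87.0%) did not overlap that of mE6 (22.7 to 56.0%). Hey2 was at 55.2% in C2 and 46.3% in G4, the astrocyte clones that expressed it, on 248 and 335 reads. Over the astrocyte clones the range of ratios was 2.62 percentage points for Notch1 and 22.1 for Notch2, at percentiles 7.90 and 81.4 of 10477 genes with a median of 8.60 points.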

How the data were processed

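RNA from clonal NPC lines and astrocytes was sequenced with a strand-specific protocol, as poly(A)-enriched or ribosomal RNA-depleted libraries. The authors aligned the reads to the mouse genome (GRCm38/mm10) masked at SNPs between CAST/EiJ and 129S1/SvImJ with TopHat (2.1.0) and Bowtie2, assigned reads to alleles with SNPsplit and used featureCounts (1.5.1) to count pairs on genes by strand. The annotation version is not given in the sources used here. The deposited counts hold Cast, 129 and all reads for 50600 Ensembl identifiers, without normalization, and no row is a total. A Cast fraction per gene, also deposited by the authors, matched the counts within 5.0e-07 and was not used further. Of the identifiers, 32722 could be named, and RefSeq (GRCm38.p6) gave positions for 25904. Exon lengths for CPM per kb came from the GENCODE M1 annotation of NCBIM37, whose coordinates were not used.

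Samples were grouped by their labels. Total reads were tested with edgeR's quasi-likelihood test (TMM, its expression filter, Benjamini-Hochberg adjustment over all genes, threshold 0.05). For allelic ratios, Cast and 129 counts entered as a pair of columns per library, and a gene needed 20 or more reads with an allele in each library. Libraries of different preparation were tested together only in the alternative with all 7 NPC clones. DESeq2, other filters, minimums, covariates and clone sets, and leaving out each library in turn were the alternatives. Wilson intervals of 95% cover counting error only, and PCR copies are not independent molecules. Reads of near-identical genes were separated only as far as the authors' counting did so.

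The members and gene lists were chosen with earlier results of these data known. All members are named. Of the called pathway genes outside the members, those with the largest change were named, 6 in each direction, and the 3 most similar profiles for Notch1, Hes1, Hes5 and Hey1. Not every gene so chosen is given in the text. Tested on simulated data, both tests among Ch clones called more unchanged genes than their threshold allows. In the test of total reads between astrocytes and poly(A) NPCs, 62 of 200 genes with a simulated log2 change of 2 were called. Analyses used R 4.3.3, edgeR 4.0.16, DESeq2 1.42.0 and Python 3.11.15.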

Additional observations from a re-analysis of the deposited data

Results flagged for a closer look

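Notch2 in the astrocyte clone G4, at 61.7% Cast, stood apart from the 39.6 to 41.8% of the other 4 astrocyte clones by more than Dixon's limit for 5 values (gap over range 0.901). Of 16 groups of clones and genes examined in this way, 1 was set apart, and chance alone gives about 1 in 20. The window of chromosome 3 around the gene had a median of 66.1% Cast in G4.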

How the results depend on the processing

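In the astrocyte comparison of total reads, Dll1, Dll3 and Hey1 remained called under RLE scaling, DESeq2, no filter on low counts, sex as a covariate and all 7 NPC clones, and DESeq2 added Hey2 (adjusted p = 0.0320) and all 7 NPC clones, a set that mixes both RNA preparations, Hes5 (edgeR adjusted p = 0.0362). All 7 NPC clones raised the count of genes from 4644 to 8739, and from 77 to 705 for the allelic ratio. No filter raised the count among Ch clones from 2834 to 4361, and leaving out Ch3 lowered it to 1112 (2 of the 10 genes) and the allelic count from 892 to 301 (0 of the 10). Leaving out each library in turn gave 2269 to 4849 genes and 1 to 3 of the 10 for astrocytes, 1509 to 3244 and 4 to 5 among Ch clones, 5 to 82 and 0 for the astrocyte allelic ratio, 762 to 1024 and 0 to 1 among Ch clones, and 3640 to 4690 and 2 to 4 for Cast against 129. Without mG2 only Hey1 of the 10 was called, and without F5 only Dll1 and Hey1. Genes that were not called changed sign in 9 cases: Notch2 with sex as a covariate (-0.19) and Notch1 with all 7 NPC clones (-0.49), and with 1 library left out Jag1 (0.12 without G4, 0.04 without mE6, 0.18 without mG2; range -0.63 to 0.18), Hes1 (0.023 without mC3; range -0.57 to 0.023), Notch3 (0.042 without mG2; range -0.55 to 0.042), Hes5 (0.80 without mG2; range -1.71 to 0.80) and the allelic difference of Notch2 (0.015 without C2; range -0.30 to 0.015); the cause was not tested. The replicate numbers of the Ch libraries gave no uniform pairing. Differences between a clone's first and second library had r of -0.276 (Ch3 and Ch7) to 0.417 (Ch5 and Ch8) over the 6 pairs of clones. The replicate block gave 3391 genes with 5 of the 10 for total reads (Hey2 added, edgeR adjusted p = 0.0468) and 889 with 1 for the allelic ratio. Allelic reads were too few for a ratio of Hes1 in every clone, and of Hes5, Hey2 and astrocyte Dll3 in some clones. For Hes1 the total reads were many, but only 4 of 2799 reads in clone 129 and 10 of 4177 in F5 were allele-specific.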
